A study of Mus musculus with 40 samples.

Results

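Endocannabinoids are lipid messengers that neurons make on demand and that act backwards across the synapse on the receptor CB1, which lowers transmitter release. Their signal is set by a receptor gene, by enzymes that build the lipids from membrane phospholipids, and by enzymes that break them down. The 10 genes described here cover these roles. Cnr1 encodes CB1. Dagla and Daglb encode the diacylglycerol lipases that make 2-arachidonoylglycerol, and Napepld, Gde1 and Abhd4 encode enzymes of the routes to anandamide and related ethanolamides. Faah encodes the hydrolase of anandamide and of other fatty acid amides, Mgll the main hydrolase of 2-arachidonoylglycerol, and Abhd6 and Abhd12 further hydrolases of that lipid. The genes were taken by name from a fixed list, and all 10 were present among the 40213 gene symbols of the count tables.

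RNA was sequenced from midbrain and spinal cord of male C57BL/6N mice, which were 8 weeks old when obtained. There were 5 arms with 4 libraries per arm and tissue, 40 libraries in all. Con mice received saline. The other arms received MPTP, a toxin that damages midbrain dopaminergic neurons, in 4 intraperitoneal injections of 20 mg/kg spaced 2 h apart, so every comparison of treatments after MPTP is within mice that all carried the toxin. MPTP-Veh mice then received saline at an acupoint, and MPTP-SU mice received SUEHP, a herbal pharmacopuncture extract, in 4 injections from 1 week later, at 2 a week. MPTP-SU+S mice received it with the CB1 antagonist SR141714A at 3 mg/kg (spelled SR141716A in the study's text), and MPTP-SU+T mice had SUEHP with the PPARγ inhibitor T0070907 at 5 mg/kg. No arm received an antagonist without SUEHP, or SUEHP without MPTP. The labels do not say whether libraries of a group come from separate mice, so p-values measure the spread between these libraries, nor whether equal numbers in the 2 tissues mark 1 mouse.

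Library totals ran from 11958200 to 16639823 counts in midbrain and from 14642808 to 16615378 in spinal cord, and the members had between 75 and 3329 counts in every library. Levels are given as CPM, counts relative to the TMM-scaled library size. 1 midbrain library, MPTP-Veh replicate 4, stood apart from the other 19. Mitochondrially encoded genes took 1.35% of its counts against 9.92% to 17.5% in the others, its oligodendrocyte markers summed to 35360 CPM against 9712 to 14010, and its position markers of the spinal cord (6 Hox genes) to 1.035 CPM against at most 0.156, where spinal cord libraries had 433.6 to 542. Markers of midbrain dopaminergic neurons (9 genes, Th and Slc6a3 among them) summed to 141.4 to 417.3 CPM in all 20 midbrain libraries and to 40.1 to 50.2 CPM in spinal cord, so each tissue carried the markers of its label. Midbrain values are from all 20 libraries unless stated, and the log2 differences of the members in both midbrain comparisons with MPTP-Veh are also given without this library. In bulk tissue, fewer cells that express a gene and less RNA per cell cannot be told apart.

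All 10 members lay outside the range of the other 19 midbrain libraries in MPTP-Veh replicate 4, as did 70.65% of all 16629 genes tested there. Cnr1, Dagla, Napepld, Gde1, Abhd4 and Abhd6 were lower than in any other library, and Daglb, Faah, Mgll and Abhd12 were higher. Cnr1 had 8.47 CPM where the others had 35.0 to 87.3, and Napepld had 7.06 CPM where the others had 17.5 to 35.8. In the opposite direction, Mgll had 174.6 CPM against 48.1 to 83.4, and Faah had 75.7 CPM against 24.6 to 52.7. This one library held both the lowest receptor level and the highest levels of the 2 best-known hydrolases in the midbrain series.

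The start-site regions of the members that rose in the one midbrain comparison with calls among them are shown first, as the DNA that lies before these genes. RefSeq start regions (GRCm38.p6, an older build than the GRCm39 named for the counts) were at hand for 8 of the 10 members, and for Dagla and Abhd12 none was. The 250 bases before the annotated start are printed 5′ to 3′ on the gene's own strand, the minus strand for both, with matches to a GC box (GGGCGG) or a CCAAT box (CCAAT) in capitals on either strand. Napepld lies at chr5:21701623-21701872 and Gde1 at chr7:118705739-118705988.
Napepld: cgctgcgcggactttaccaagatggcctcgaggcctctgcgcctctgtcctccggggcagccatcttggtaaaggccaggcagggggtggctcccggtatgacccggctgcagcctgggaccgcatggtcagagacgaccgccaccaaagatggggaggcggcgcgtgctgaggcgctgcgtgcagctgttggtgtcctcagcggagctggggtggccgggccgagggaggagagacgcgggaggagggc
Gde1: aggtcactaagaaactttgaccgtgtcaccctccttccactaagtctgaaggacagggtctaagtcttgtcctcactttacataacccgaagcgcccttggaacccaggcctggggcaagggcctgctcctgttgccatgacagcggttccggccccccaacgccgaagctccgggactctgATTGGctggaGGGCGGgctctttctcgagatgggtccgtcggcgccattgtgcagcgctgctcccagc
The Gde1 window held 1 CCAAT box, read as ATTGG on the printed strand and beginning 68 bases before the start, and 1 GC box beginning 58 bases before it. The Napepld window, with 69.6% G and C, held neither. Among 32851 such windows, 33.8% held a CCAAT box and 32.7% a GC box, so both motifs are common before a gene. Neither window held a TATA box (TATAAA, in 12.4% of all windows) or a cAMP response element (TGACGTCA, in 1.55%), nor did any of the 13 windows of the members. No measurement of binding or chromatin bears on these windows.

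To compare genes with each other, CPM was divided by the length of the longest protein-coding transcript in GENCODE M21. On that scale Abhd12 was the most abundant member in Con midbrain, at 95.97 ± 0.852 CPM per kb (SD, n = 4), followed by Gde1 at 70.9 ± 3.52 and Abhd4 at 27.5 ± 1.60. Abhd6 (19.9 ± 1.73) and Mgll (17.4 ± 3.29) overlapped. Cnr1 (11.3 ± 1.83), Dagla (10.6 ± 1.44), Faah (10.3 ± 2.36) and Napepld (6.92 ± 1.43) came next, each overlapping its neighbour in the order, and Daglb was lowest at 4.74 ± 0.138. Dagla, the isoform that supplies most 2-arachidonoylglycerol at synapses, thus stood above Daglb per length in this tissue. Con spinal cord had nearly the same order, Abhd12 at 91.2 ± 4.34 CPM per kb first and Daglb at 4.17 ± 0.347 last, with Dagla (7.43 ± 0.845) and Cnr1 (6.67 ± 0.740) in exchanged places and overlapping.

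The MPTP-Veh and Con groups address what the toxin did to these genes in midbrain. No member passed an adjusted p of 0.05 in edgeR's quasi-likelihood test, and 3 of 10 had an unadjusted p below 0.05, beside 23.7% of all genes tested. DESeq2 and limma-voom with sample weights called none either. DEGs, defined by an adjusted p below 0.05 and a change above 1.5-fold, made up 0.018% of all genes tested. Cnr1 was at 62.1, 81.1, 56.9 and 62.3 CPM in the Con libraries. It was at 50.4, 35.0, 59.5 and 8.47 CPM in MPTP-Veh. The second set reaches lower, but the groups overlap, and the log2 fold change of Cnr1 was -0.77 ± 0.35 (SE, adjusted p = 0.196), or -0.44 ± 0.21 (adjusted p = 0.406) without replicate 4.

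Dagla and Napepld were the only members whose MPTP-Veh values all lay below the Con values, against 12.4% of genes tested with groups that did not overlap in either direction. Dagla was at 56.6, 71.4, 56.9 and 53.1 CPM in Con and 44.3, 51.5, 42.8 and 27.5 CPM in MPTP-Veh. Napepld was at 22.2, 34.7, 28.9 and 23.7 CPM in Con and 17.5, 21.6, 18.4 and 7.06 CPM in MPTP-Veh. For both genes the gap between the groups is smaller than the range within Con. The exact permutation test gave p = 0.0286 for each of the 2 genes, two-sided, which is the smallest value that 4 against 4 allows. In the fit across all genes, Dagla differed by -0.52 ± 0.21 (adjusted p = 0.157) and Napepld by -0.75 ± 0.28 (adjusted p = 0.144) on the log2 scale. Without replicate 4 the differences were -0.36 ± 0.19 (adjusted p = 0.459) and -0.51 ± 0.24 (adjusted p = 0.388).

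Of the hydrolases, Faah and Mgll differed from the rest in how far 1 library set their group mean. Faah averaged 40.9 ± 23.2 CPM in MPTP-Veh, but 29.4 ± 1.04 CPM over the other 3 libraries, against 39.3 ± 9.04 CPM in Con. Its log2 difference from Con went from 0.06 ± 0.26 to -0.42 ± 0.16 (adjusted p = 0.907 and 0.301). Mgll went from 0.44 ± 0.26 to -0.04 ± 0.16 in the same way (adjusted p = 0.297 and 0.954). The differences of the other 5 members, with all 20 libraries and then without replicate 4, were -0.24 ± 0.12 and -0.13 ± 0.10 for Abhd6, 0.16 ± 0.09 and 0.05 ± 0.06 for Abhd12, -0.04 ± 0.12 and -0.16 ± 0.10 for Daglb, -0.08 ± 0.09 and -0.05 ± 0.09 for Gde1, and -0.08 ± 0.13 and 0.05 ± 0.09 for Abhd4. None of them passed in either fit, and the Abhd4 value changed sign.

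**Figure D1:**
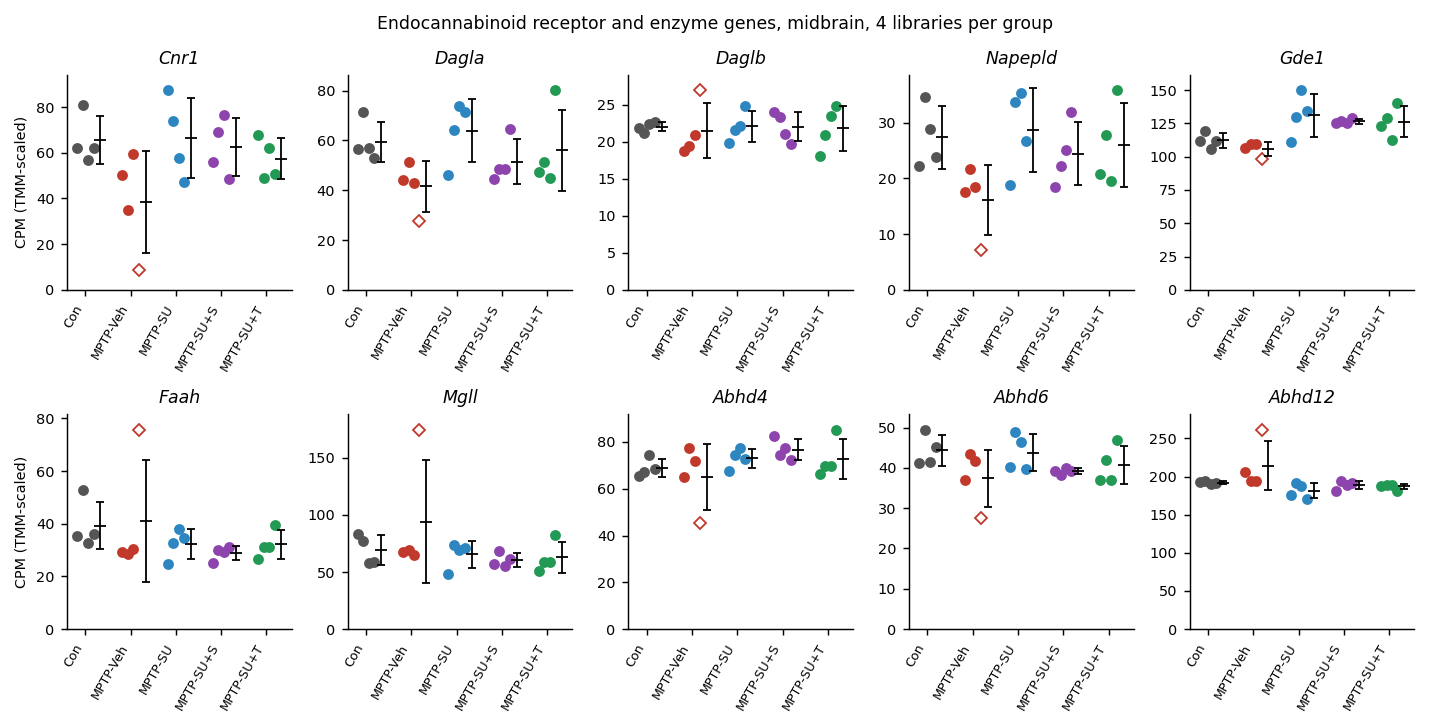
CPM of each member (vertical axis, TMM-scaled, from 0) in the 20 midbrain libraries by arm, each point 1 library and the black bar the mean ± SD of 4. The open diamond is MPTP-Veh replicate 4, which lies below the other 19 libraries for 6 members (Cnr1 at 8.47 CPM) and above them for 4 (Mgll at 174.6 CPM).

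SUEHP after MPTP was compared with saline after MPTP in midbrain. Napepld, the phospholipase D that releases anandamide from its precursor, Dagla and Gde1 were higher in MPTP-SU, and no member was lower past the adjusted p. 3 of 10 members passed the adjusted p, all upwards, where 20.1% of all genes tested passed it and 7.38% passed it upwards. 2 of the 10, Dagla and Napepld, also exceeded 1.5-fold and so were DEGs, beside 13.5% of all genes. DESeq2 called 2 DEGs among the members as well, and limma-voom with sample weights called 0. The median log2 difference of the 10 members was 0.20, beside 0.00 over all genes tested, and 0.155 without MPTP-Veh replicate 4.

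Gde1, a phosphodiesterase of a second route to anandamide, was the only member whose MPTP-SU values all lay above MPTP-Veh. It was at 106.3, 109.7, 109.2 and 98.1 CPM in MPTP-Veh and 110.8, 129.8, 149.7 and 134 CPM in MPTP-SU. The lowest MPTP-SU library, replicate 1, was close to the highest MPTP-Veh library, and the other 3 stood well clear. The log2 fold change was 0.31 ± 0.09 (adjusted p = 0.0304, exact permutation p = 0.0286). It was 0.27 ± 0.09 (adjusted p = 0.0386) without MPTP-Veh replicate 4, the only one of the 3 calls kept without that library. Gde1 lost its call without MPTP-SU replicate 2, 3 or 4 (adjusted p = 0.0684, 0.0897 and 0.0544), and also with library size alone (0.112), with no low-count filter (0.0657) and with the 2 groups alone (0.243).

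Dagla rose by 0.62 ± 0.21 on the log2 scale (adjusted p = 0.0427), from 41.5 ± 10.1 CPM to 63.9 ± 12.6 CPM (SD, n = 4). Its MPTP-SU libraries had 46.01, 64.3, 73.7 and 71.6 CPM, so that replicate 1 fell inside the MPTP-Veh range and the groups overlapped. Napepld rose by 0.82 ± 0.28 (adjusted p = 0.0488), from 16.1 ± 6.30 CPM to 28.7 ± 7.53 CPM. Its MPTP-SU libraries had 18.9, 33.7, 35.3 and 26.7 CPM, again with replicate 1 inside the MPTP-Veh range. Without MPTP-Veh replicate 4, Dagla differed by 0.47 ± 0.19 (adjusted p = 0.105) and Napepld by 0.58 ± 0.24 (adjusted p = 0.106), and neither passed. With each of the 20 midbrain libraries left out in turn, the Dagla call was lost in 10 cases: those of Con replicates 1, 3 and 4, replicate 4 of MPTP-Veh, replicates 2, 3 and 4 of MPTP-SU, replicates 2 and 3 of MPTP-SU+S, and replicate 2 of MPTP-SU+T (adjusted p = 0.052 to 0.105). The Napepld call was lost in 16 cases and held only when the library left out was replicate 2 or 3 of MPTP-Veh, replicate 1 of MPTP-SU or replicate 4 of MPTP-SU+T (adjusted p = 0.0279 to 0.048), with the other 16 at 0.0517 to 0.122.

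Cnr1 itself did not pass. Its MPTP-SU libraries had 87.3, 73.96, 57.6 and 47.3 CPM, a range that held 2 of the 4 MPTP-Veh libraries, and the difference was 0.79 ± 0.35 (adjusted p = 0.105), or 0.46 ± 0.21 (adjusted p = 0.149) without MPTP-Veh replicate 4. Leaving out MPTP-Veh replicate 3 instead gave 1.09 (adjusted p = 0.0371), the only one of 28 alternatives in which Cnr1 passed. Abhd12 was below MPTP-Veh in all 4 MPTP-SU libraries, at 175.7, 191.9, 187.7 and 170.3 CPM against 205.6, 193.8, 194.7 and 261.3. The Abhd12 difference was -0.24 ± 0.09 (adjusted p = 0.0632, exact permutation p = 0.0286) and -0.13 ± 0.06 (adjusted p = 0.143) without replicate 4, and it passed in 3 of 28 alternatives, with DESeq2 (adjusted p = 0.0247) and without MPTP-Veh replicate 2 (0.0386) or 3 (0.0384). Gde1 and Abhd12 were the 2 members without overlap, beside 21.9% of all genes. The breakdown enzymes Mgll and Faah again depended on 1 library. Mgll was at 67.7, 69.5, 64.8 and 174.6 CPM in MPTP-Veh and 48.1, 73.6, 69.4 and 70.7 CPM in MPTP-SU, with a difference of -0.52 ± 0.26 (adjusted p = 0.142) that was -0.04 ± 0.16 (adjusted p = 0.9) without replicate 4. Faah was at 29.1, 28.5, 30.5 and 75.7 CPM in MPTP-Veh and 24.6, 32.6, 38.1 and 34.5 CPM in MPTP-SU. Its difference went from -0.33 ± 0.26 (adjusted p = 0.342) to 0.14 ± 0.16 (adjusted p = 0.603), a change of sign. Daglb, Abhd4 and Abhd6, which were at 18.1 to 24.8, 65.1 to 85.2 and 36.9 to 49.4 CPM over the other 19 libraries, differed by 0.04 to 0.23 with no adjusted p below 0.182. Without replicate 4 the differences were 0.16 ± 0.10 for Daglb, 0.03 ± 0.09 for Abhd4 and 0.11 ± 0.10 for Abhd6, and none passed.

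**Figure D2:**
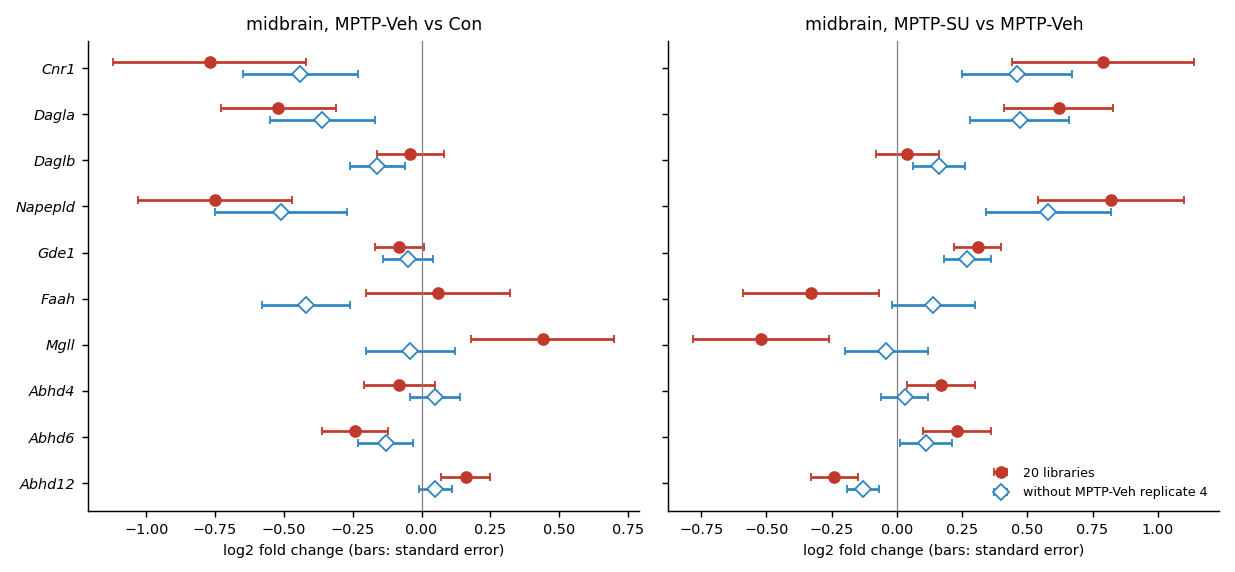
Log2 fold change ± SE of each member in midbrain for MPTP-Veh against Con (left) and MPTP-SU against MPTP-Veh (right), with all 20 libraries (filled circles) and without MPTP-Veh replicate 4 (open diamonds). Without that library Cnr1 moves from -0.77 to -0.44 on the left and from 0.79 to 0.46 on the right, while Gde1 on the right moves from 0.31 to 0.27.

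Both comparisons share the MPTP-Veh libraries, so opposite signs in them are not independent. MPTP-SU against Con does not use the MPTP-Veh levels, but all 20 midbrain libraries set the spread of its fit. It had 0 of 10 members past the adjusted p with edgeR and 1 unadjusted, beside 1.25% and 16.1% of all genes. DEGs were 0.764%. Without MPTP-Veh replicate 4, 0 of 10 members and 15.7% of all genes passed the adjusted p. The groups overlapped for every member, while 19.6% of genes tested did not overlap. Cnr1 averaged 66.5 ± 17.6 CPM in MPTP-SU and 65.6 ± 10.6 CPM in Con. Its log2 difference was 0.02 ± 0.35 with a 95% interval of -0.66 to 0.70, or 0.02 ± 0.19 without MPTP-Veh replicate 4. Dagla differed by 0.10 ± 0.20 and Napepld by 0.07 ± 0.28. Gde1 had the smallest p, at 0.22 ± 0.09 (adjusted p = 0.227, and 0.0606 without MPTP-Veh replicate 4). Of 28 alternatives, 1 called Gde1, limma-voom with sample weights at an adjusted p of 0.0352. Over all 5 arms in 1 test, edgeR called 0 of 10 members and 7.1% of all genes (1 of 10 and 27.9% at an unadjusted p below 0.05), and Gde1 had the smallest adjusted p (0.101), passing with DESeq2 (0.0145) and limma-voom (0.00708).

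Markers of neighbouring brain regions varied between the midbrain libraries beside these genes. The summed CPM of 6 thalamus markers (Prkcd, Tnnt1, Rgs16, Ramp3, Lef1 and Gbx2) ran from 84.8 to 315 in Con, from 91.2 to 301.4 in MPTP-Veh and from 118.7 to 759.9 in MPTP-SU, with medians of 161.3, 103.1 and 583.4. The MPTP-SU library with the lowest sum was replicate 1, which was also the lowest MPTP-SU library for Dagla, Napepld and Gde1. Over the 19 libraries without MPTP-Veh replicate 4, the correlation of log2 levels with the log2 thalamus sum, both taken as deviations from the arm mean, was 0.94 for Napepld, 0.90 for Dagla and 0.77 for Gde1. Members without a call with SUEHP had positive values too, 0.69 for Faah, 0.66 for Abhd6, 0.53 for Abhd4 and 0.51 for Mgll. The coefficient was 0.07 for Daglb, 0.04 for Abhd12 and -0.48 for Cnr1. These coefficients describe libraries that share their dissection and sequencing, and the part of the thalamus markers in the SUEHP difference was not tested.

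Cortex and hippocampus markers (6 genes) summed to 42.2 to 189.2 CPM in Con and to 15.6 to 65.6 CPM in MPTP-SU, and 6 striatal markers to 117.2 to 186.6 CPM in MPTP-Veh (at most 131.4 without replicate 4) and to 83.0 to 104 CPM in MPTP-SU. Gde1 varied inversely with the striatal sum (-0.70 within arms over the 19 libraries). Cnr1 varied inversely with the oligodendrocyte sum (-0.74 within arms) and in the same direction as the neuron sum (0.53). The dopaminergic marker sums overlapped between all arms, at 164.1 to 329.4 CPM in Con, 141.4 to 386.2 in MPTP-Veh and 167.0 to 391.5 in MPTP-SU, and their correlation with Cnr1 within arms was -0.55. The part of these markers in any member's difference was not tested.

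**Figure D3:**
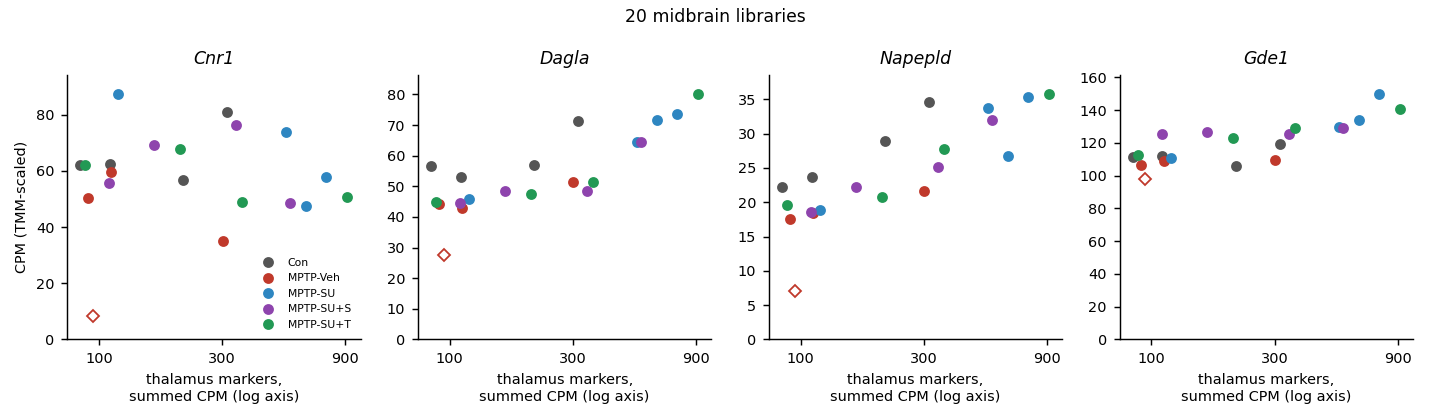
CPM of Cnr1, Dagla, Napepld and Gde1 (vertical axes, from 0) against the summed CPM of 6 thalamus markers (horizontal log axis) in the 20 midbrain libraries, coloured by arm, with MPTP-Veh replicate 4 as an open diamond. Dagla, Napepld and Gde1 are higher in libraries with more thalamus marker RNA (0.90, 0.94 and 0.77 within arms over 19 libraries), and Cnr1 is not (-0.48).

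The antagonist arms were compared with SUEHP alone. In midbrain no member differed past the adjusted p between MPTP-SU+S and MPTP-SU, between MPTP-SU+T and MPTP-SU or between the 2 antagonist arms, with every adjusted p at 1.0. In each comparison 0 of 10 members had an unadjusted p below 0.05, beside 1.65%, 1.7% and 0.782% of all genes. DEGs were 0.0% of all genes in each of the 3 comparisons, and DESeq2 and limma-voom called no member either. No member had groups without overlap, beside 2.15%, 1.96% and 1.3% of genes tested. Cnr1, the target of SR141714A, was at 55.8, 69.3, 76.4 and 48.7 CPM in MPTP-SU+S and 67.8, 48.9, 62.1 and 50.8 CPM in MPTP-SU+T. Both ranges lie inside that of MPTP-SU. The Cnr1 difference with the CB1 antagonist was -0.09 ± 0.35, with a 95% interval of -0.77 to 0.60.

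The member with the largest difference under the CB1 antagonist was Dagla, at 44.5, 48.6, 48.5 and 64.5 CPM in MPTP-SU+S, a log2 difference of -0.31 ± 0.20 (95% interval -0.71 to 0.09). Abhd6, a hydrolase at the postsynaptic side, was at 39.3, 38.2, 40 and 39.3 CPM there against 40.1, 48.8, 46.5 and 39.6 in MPTP-SU (exact permutation p = 0.0571). Gde1 had its narrowest spread in MPTP-SU+S, at 125.4, 126.8, 125.2 and 129.3 CPM, close to the MPTP-SU mean of 131.1. The 2 antagonists act on different receptors, and between their arms the members differed by at most 0.15 on the log2 scale. The 95% intervals were wide, at -0.56 to 0.81 for Cnr1 and -0.66 to 0.35 for Faah, so larger differences are not excluded.

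Spinal cord, where incoming pain signals are relayed, gave tighter values, by an amount that varied between members. Among its 20 libraries each member's highest CPM was 1.13 to 1.55 times its lowest. In the 19 midbrain libraries the ratio ran from 1.21 for Abhd12 to 2.49 for Cnr1. For Abhd4 it was nearly the same in both tissues, at 1.308 in midbrain and 1.304 in spinal cord. No member passed the adjusted p with edgeR in any of the 6 comparisons there or in the test over all arms, in which DESeq2 (adjusted p = 0.0193) and limma-voom (0.0267) called Cnr1. DEGs made up 0.0% of genes in MPTP-Veh against Con, MPTP-SU against MPTP-Veh, MPTP-SU against Con and MPTP-SU+S against MPTP-SU, 0.024% in MPTP-SU+T against MPTP-SU and 0.12% in MPTP-SU+S against MPTP-SU+T, and the test over all arms called 0.15%. The adjusted p alone was passed by 0.036% and 3.06% of genes in the last 2 of these comparisons and by 0.0% in the first 4. Members with an unadjusted p below 0.05 numbered 3, 0, 2, 0, 1 and 3 in the 6 comparisons, in that order, beside 12.8%, 3.81%, 9.17%, 5.49%, 12.1% and 21.7% of genes. Over all arms 3 members had one, beside 16.8%.

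Cnr1 had the smallest adjusted p after MPTP in spinal cord. Its Con libraries had 33.6, 43.5, 40.6 and 37.2 CPM and its MPTP-Veh libraries 42.96, 50.7, 47.9 and 48.5 CPM. Only the highest Con library, replicate 2, reached into the MPTP-Veh range. The log2 difference was 0.30 ± 0.08, with an adjusted p of 0.19 by edgeR, 0.037 by DESeq2 and 0.0406 by limma-voom, and 0.36 (adjusted p = 0.0236 by edgeR) without Con replicate 2, the 3 of 28 alternatives in which it passed. MPTP-SU libraries had 46.5, 43.7, 45.3 and 43.97 CPM, all above Con, at 0.21 ± 0.08 (adjusted p = 0.47). The Cnr1 difference after MPTP was thus positive in spinal cord and negative in midbrain, neither past the adjusted p, and the difference of the 2 log2 changes was -1.07 ± 0.37, with an adjusted p of 0.0714. Without midbrain MPTP-Veh replicate 4 it was -0.74 ± 0.22 (adjusted p = 0.0721), and limma-voom with sample weights gave -1.33 (adjusted p = 0.0445).

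Gde1, which rose with SUEHP in midbrain, was at 87.96, 88.2, 92.4 and 94.5 CPM in Con spinal cord and 78.9, 81.6, 81.2 and 87.8 CPM in MPTP-SU. All 4 treated libraries lay below Con, by -0.14 ± 0.05 on the log2 scale (adjusted p = 0.476). Gde1 averaged 84.3 ± 5.32 CPM in spinal cord MPTP-Veh, -0.11 ± 0.05 from Con (adjusted p = 0.388). Against MPTP-Veh, the comparison in which Gde1 rose in midbrain, MPTP-SU differed by only -0.03 ± 0.05 in spinal cord. Cnr1 and Gde1 were the 2 members without overlap in MPTP-SU against Con, beside 3.51% of genes. No member lacked overlap in MPTP-Veh against Con (4.73% of genes) or MPTP-SU against MPTP-Veh (3.27%). SUEHP against saline after MPTP left the members within 0.09 of no change in spinal cord, with every adjusted p at 0.999.

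In the antagonist arms of the spinal cord, Faah lay above and Cnr1 below MPTP-SU under the PPARγ inhibitor, neither past the adjusted p. Faah was at 25.95, 25.4, 25.7 and 25.2 CPM in MPTP-SU and 27.8, 30.6, 28.4 and 28.1 CPM in MPTP-SU+T, without overlap, for a log2 difference of 0.17 ± 0.06 (adjusted p = 0.295). Cnr1 was at 39.8, 43.6, 42.1 and 42.04 CPM in MPTP-SU+T, just under every MPTP-SU library, at -0.10 ± 0.08 (adjusted p = 0.612). These 2 stand beside 8.04% of genes tested without overlap. Under the CB1 antagonist no member lacked overlap with MPTP-SU (4.19% of genes), and Cnr1 was at 40.6, 49.8, 51.3 and 45.8 CPM, a difference of 0.06 ± 0.07 (95% interval -0.08 to 0.21).

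The 2 antagonist arms were then compared directly in spinal cord. Faah was lower with the CB1 antagonist than with the PPARγ inhibitor by -0.18 ± 0.06 (adjusted p = 0.098, and 0.0428 by limma-voom), Napepld higher by 0.23 ± 0.09 (adjusted p = 0.143) and Cnr1 higher by 0.16 ± 0.08 (adjusted p = 0.211). Abhd12 was the single member without overlap, at 173.8, 179, 180.6 and 180.9 CPM against 189.2, 184, 183.3 and 192.4, beside 13.1% of genes. Napepld passed in 1 of 28 alternatives, without MPTP-SU+T replicate 2 (adjusted p = 0.0425), and Faah in 1 of 28. None of these passed the adjusted p with edgeR on all 20 libraries.

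**Figure D4:**
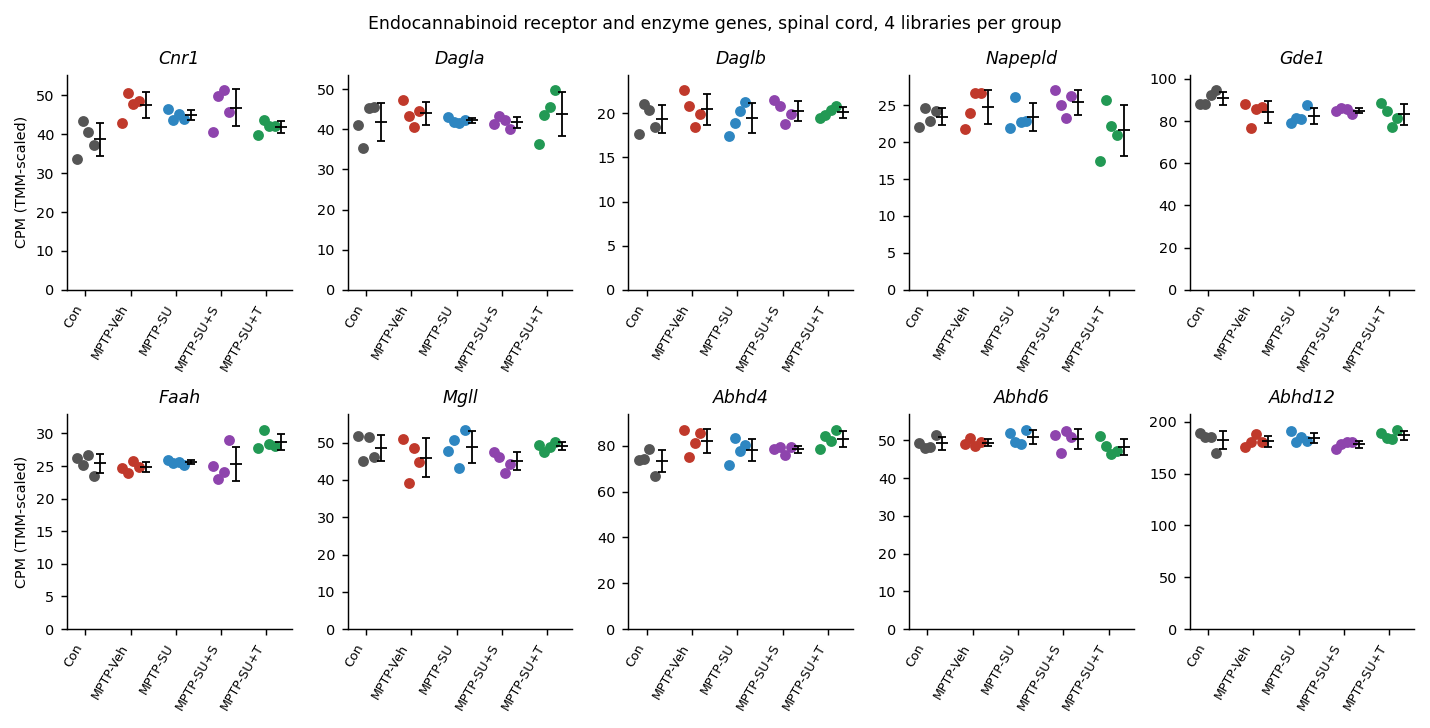
CPM of each member (vertical axis, TMM-scaled, from 0) in the 20 spinal cord libraries by arm, each point 1 library and the black bar the mean ± SD of 4. Cnr1 lies at 33.6 to 43.5 CPM in Con and 43.0 to 50.7 CPM in MPTP-Veh, and Faah reaches 27.8 to 30.6 CPM in MPTP-SU+T.

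Between the tissues, 5 of 10 members were higher in Con midbrain than in Con spinal cord past the adjusted p and none was lower, where 29.8% of 17426 genes passed it and 13.9% passed it upwards. Cnr1 was higher by 0.78 ± 0.26 on the log2 scale (adjusted p = 0.0222) and Faah by 0.64 ± 0.19 (adjusted p = 0.0102). These 2 exceeded 1.5-fold, which 16.4% of genes did with the adjusted p. Mgll was higher by 0.53 ± 0.20 (adjusted p = 0.0415), Dagla by 0.52 ± 0.16 (adjusted p = 0.0125) and Gde1 by 0.32 ± 0.07 (adjusted p = 0.000709). Receptor, main synthetic enzyme and both main hydrolases were thus on the midbrain side together. Only Gde1 kept its call with each of the 8 Con libraries left out in turn. Leaving out midbrain Con replicate 2, the highest Con library for Cnr1, Dagla and Faah, took the calls of Cnr1 (0.64, adjusted p = 0.0868), Dagla (0.41, adjusted p = 0.0752), Faah (0.45, adjusted p = 0.101) and Mgll (0.45, adjusted p = 0.134). Cnr1 also lost its call without spinal cord Con replicate 1 or 4 (adjusted p = 0.067 and 0.0536), Dagla without spinal cord Con replicate 2 (0.0593), and Mgll without midbrain Con replicate 1 or any of the 4 spinal cord Con libraries (0.071 to 0.171). Mgll lost its call with RLE size factors (0.0559), with no low-count filter (0.0563) and with a minimum of 10 counts in every library (0.0592) too. Midbrain MPTP-Veh replicate 4 is outside this contrast but enters the spread of its fit. Without that library all 5 passed, with Cnr1 at 0.76 ± 0.15 (adjusted p = 8.87e-05) and Faah at 0.63 ± 0.12 (3.6e-05). Mgll was at 0.51 ± 0.12 (0.000956), Dagla at 0.51 ± 0.14 (0.00374) and Gde1 at 0.31 ± 0.07 (0.000281). With the 2 groups alone all 5 passed as well (adjusted p = 0.000252 to 0.00398).

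Averaged over the 5 arms, 9 of 10 members differed between the tissues, 7 of them higher in midbrain, beside 66.2% of all genes past the adjusted p and 34.5% upwards. None exceeded 1.5-fold on average, as 22.0% of genes did. Mgll differed by 0.56 ± 0.09 (adjusted p = 1.17e-06) and Gde1 by 0.50 ± 0.03 (adjusted p = 6.64e-16). Abhd6 (-0.27 ± 0.04, adjusted p = 1.06e-06) and Abhd4 (-0.14 ± 0.04, adjusted p = 0.00554) were the 2 on the spinal cord side. Napepld did not differ past the threshold (0.03 ± 0.10, adjusted p = 0.778). Without midbrain MPTP-Veh replicate 4, Mgll differed by 0.46 ± 0.06, Gde1 by 0.51 ± 0.03 and Cnr1 by 0.45 ± 0.07, and the same count of 9 passed.

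The estimate of the tissue difference was not equal in all arms. For Cnr1 it was 0.78 in Con and -0.30 ± 0.26 in MPTP-Veh (0.02 ± 0.16 without replicate 4), but the edgeR interaction did not pass (adjusted p = 0.0714). For Gde1 it was 0.32 in Con, 0.33 in MPTP-Veh (0.36 ± 0.07 without replicate 4) and 0.68 in MPTP-SU. The SUEHP difference itself was therefore compared between the tissues, and 4 of 10 members passed the adjusted p of that interaction, beside 16.8% of all genes, with 2 of them past 1.5-fold beside 12.1%. The difference of log2 changes, midbrain minus spinal cord, was 0.90 ± 0.31 for Napepld (adjusted p = 0.0405), 0.68 ± 0.23 for Dagla (adjusted p = 0.0381), 0.35 ± 0.10 for Gde1 (adjusted p = 0.0201) and -0.26 ± 0.09 for Abhd12 (adjusted p = 0.047). Without midbrain MPTP-Veh replicate 4 only Gde1 passed (0.32 ± 0.10, adjusted p = 0.0254), with Dagla at 0.54 ± 0.21 (adjusted p = 0.0833), Napepld at 0.68 ± 0.25 (adjusted p = 0.0751) and Abhd12 at -0.13 ± 0.06 (adjusted p = 0.158).

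For the MPTP difference the interaction called 0 of 10 members with edgeR (3 at an unadjusted p below 0.05, beside 27.7% of genes, and Cnr1 alone with limma-voom), and DEGs were 2.45% of genes. For the CB1 antagonist it called 0 of 10 with edgeR and with limma-voom, with 0 unadjusted, beside DEGs at 0.0% and 2.18% of genes at an unadjusted p below 0.05.

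**Figure D5:**
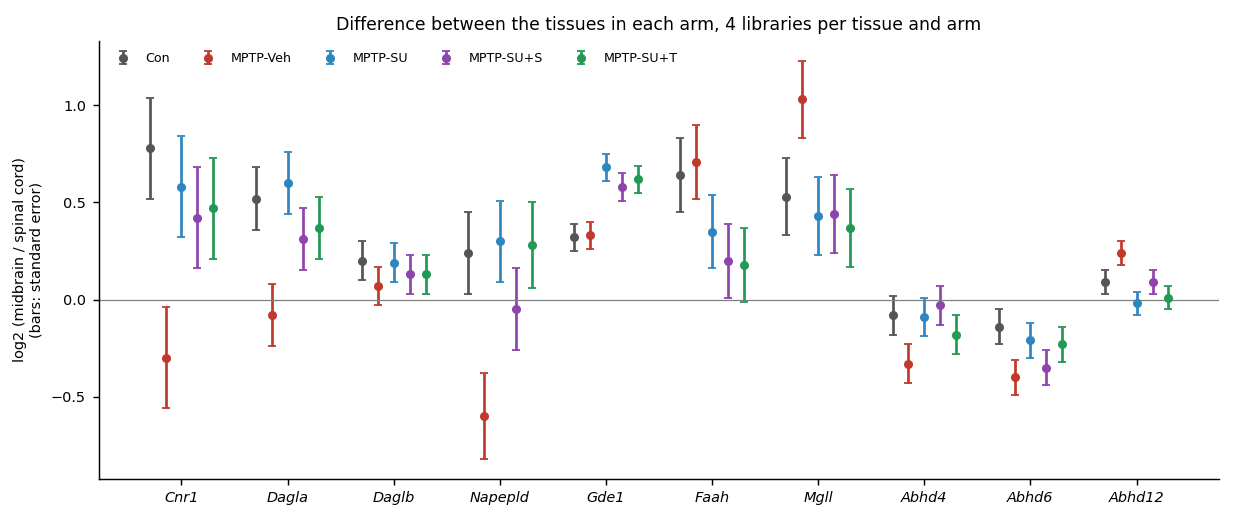
Log2 ratio of midbrain to spinal cord ± SE for each member in the 5 arms (colours), from the model of all 40 libraries. Gde1 is higher in midbrain in every arm, at 0.32 to 0.68. The MPTP-Veh points (red) include midbrain replicate 4, without which the ratio of Faah in that arm is 0.24 ± 0.13 in place of 0.71 ± 0.19.

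Dagla and Napepld, which encode enzymes that release 2-arachidonoylglycerol and anandamide, varied together across midbrain libraries. Their correlation over 20 libraries was 0.93, and 0.89 within arms over the 19 libraries without MPTP-Veh replicate 4. Dagla and Gde1 had 0.82 on the latter measure, and Dagla and Faah 0.81, although over all 20 libraries Dagla and Faah had -0.08. For Cnr1 the sign depended on that library. Within arms it had 0.27 against Dagla and 0.49 against Napepld over all 20 libraries, and -0.50 and -0.35 over the 19. In spinal cord the pairs farthest from 0 within arms were Cnr1 with Mgll at -0.58 and Mgll with Abhd4 at 0.56. These coefficients describe libraries that share their dissection and sequencing, with no test.

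Among the genes most like Cnr1 over the 20 midbrain libraries were Nsf (Pearson r of log2 CPM 0.969), Dlg2 (0.968) and Plxna2 (0.965). Without MPTP-Veh replicate 4 these were 0.828, 0.833 and 0.809, and within arms over all 20 libraries 0.965, 0.958 and 0.955. For Dagla the most similar gene was Sprn (0.968), for Napepld Cited2 (0.965), for Gde1 Prnp (0.933), for Mgll Bzw2 (0.948), for Daglb Hps6 (0.921), for Abhd4 Rab31 (0.925) and for Abhd12 Utp11 (0.961). In spinal cord the 5 genes most like Cnr1 were Cggbp1 (0.906), Prepl (0.900), Ank (0.895), Map3k7 (0.894) and Lrrc8b (0.892), none of them shared with midbrain, and the nearest gene of the other 9 members had a coefficient between 0.742 and 0.893. Each was picked as one of the highest over all genes tested in the same 20 libraries, and no p is attached.

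Of the wider pathway, 49 genes in 6 lists were examined, 41 of them tested in midbrain and 42 in spinal cord. The other cannabinoid-responsive receptors were near absent. Cnr2, the CB2 receptor of immune cells, reached at most 9 counts in a midbrain library and 5 in a spinal cord library, Gpr55 7 and 5, Gpr119 3 and 2, and Gpr18 1 and 2, and the ion channel Trpv1 13 in both, so none of the 5 entered a test. CB1 was therefore the one receptor of the set whose mRNA could be compared.

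With SUEHP against saline after MPTP in midbrain, 11 of 41 pathway genes (26.83%) passed the adjusted p, 4 upwards and 7 downwards, beside the 20.1% of all genes, and without MPTP-Veh replicate 4 it was 8 of 41 (19.51%) beside 14.6% of all genes. The list of CB1 partners held 7 of them among 11 tested, 3 higher and 4 lower, and 5 (3 higher, 2 lower) without that library. Grk3, a receptor kinase, rose by 0.55 ± 0.16 (adjusted p = 0.0296), whereas the Gi subunit Gnai2 fell (-0.77 ± 0.18, adjusted p = 0.0139) and the arrestin Arrb2 fell (-0.58 ± 0.17, adjusted p = 0.0266). Without replicate 4 these were 0.39, -0.41 and -0.28 and still passed (adjusted p = 0.0483, 0.0019 and 0.0377). Grk3 and Gnai2 were at 33.03 and 544.9 CPM in that library, against MPTP-Veh means of 50.8 ± 12.8 and 329.2 ± 144.5 that include it. Another Gi subunit, Gnai3, went the other way from Gnai2 (0.48 ± 0.15, adjusted p = 0.0325) and also passed without replicate 4.

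The lipid carriers ferry anandamide inside cells. All 5 tested carriers had negative differences, and Fabp5 (-0.42 ± 0.09, adjusted p = 0.0098) and Fabp3 (-0.32 ± 0.11, adjusted p = 0.0459, and 0.0489 without MPTP-Veh replicate 4) passed. Fabp5 fell from 100.5 ± 6.87 to 75.2 ± 7.78 CPM, was also lower than in Con (-0.42 ± 0.09, adjusted p = 0.032), and without MPTP-Veh replicate 4 differed by -0.46 (adjusted p = 0.00148). Among other breakdown genes, Lipe fell (-0.82 ± 0.26, adjusted p = 0.039) and Abhd2 rose (0.27 ± 0.09, adjusted p = 0.0475), and neither passed without that library (adjusted p = 0.167 and 0.0674). None of the 11 other synthesis genes tested passed, and none of the 7 genes of Gq-coupled drive.

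In MPTP-SU against Con, the muscarinic receptor Chrm1 was lower by -1.94 ± 0.36 (adjusted p = 0.0178), between 33.1 ± 15.4 and 8.59 ± 3.49 CPM. Chrm1 was as low after MPTP with saline (8.42 ± 3.17 CPM), so its level did not set SUEHP apart from saline. The CB1 antagonist arm averaged 6.33 ± 1.43 CPM and the PPARγ inhibitor arm 9.07 ± 3.13 CPM. Over all 5 arms, edgeR gave Chrm1 an adjusted p of 0.00198. Con also had the higher cortex and hippocampus marker sums given above, whose part in the Chrm1 difference was not tested. Chrm1 and Fabp5 were the 2 pathway genes of 41 that passed in MPTP-SU against Con, beside 1.25% of all genes. Without MPTP-Veh replicate 4, 9 of 41 (2 higher, 7 lower) passed in that comparison, beside 15.7% of all genes. No pathway gene passed with edgeR in MPTP-Veh against Con (11 of 41 unadjusted, beside 23.7% of all genes), or in any of the 3 midbrain comparisons of the antagonist arms (0 unadjusted). In spinal cord only MPTP-SU+S against MPTP-SU+T had any, with Gna11 lower by -0.26 ± 0.05 (adjusted p = 0.0197) and Grk2 by -0.18 ± 0.05 (adjusted p = 0.0488), 2 of 42 genes beside 3.06% of all genes.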

How the data were processed

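Total RNA of midbrain and spinal cord was made into libraries with the CORALL RNA-seq V2 kit. Expected counts per gene symbol were deposited by the authors as whole numbers, 1 library per file, after trimming with fastp, alignment with STAR and quantification with Salmon. The submitters' processing notes name the build GRCm39 and GATK without a role, and versions and annotation are not given in the sources used here.

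Groups were taken from the labels. Counts were scaled by TMM, genes were kept by filterByExpr, and edgeR 4.0.16 (R 4.3.3) quasi-likelihood tests were fitted over the 20 libraries of a tissue, or all 40 for tissue contrasts and interactions, with Benjamini-Hochberg adjustment over all genes tested. The code was tested on simulated data. Log2 CPM used a prior count of 2. Single genes were also compared by exact permutation tests in scipy 1.17.1. No 2 libraries of a group agreed within counting noise. Alternatives used DESeq2 1.42.0, limma 3.58.1 voom with sample weights, RLE factors, library size alone, no filter, a minimum of 10 counts in every library, the 2 groups alone, a replicate block and left-out libraries. The fit of the interactions without 1 library was added after the data were seen.

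The members and gene lists were chosen with earlier results of these data known. The named genes were all 10 members, pathway genes past an adjusted p of 0.05 (at most 3 a list and comparison, by smallest p), and the 5 genes (Cnr1) or 1 gene (other members) of highest Pearson correlation of log2 CPM. Some of these most correlated genes are not reported here. The untested receptors were named after their counts were seen, and Gnai3 was added beside Gnai2 after the results were seen. Protein sequences were not used here.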

Additional observations from a re-analysis of the deposited data

Results flagged for a closer look

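In 4 of 100 groups of 4 midbrain or spinal cord libraries, 1 library lay far from the other 3 by Dixon's criterion, where chance gives about 1 in 20. Faah was at 52.66 CPM in midbrain Con replicate 2 and at 32.86 to 36.04 CPM in the other Con libraries. Faah was at 75.65 CPM in midbrain MPTP-Veh replicate 4 and at 28.46 to 30.48 CPM in the other MPTP-Veh libraries. Mgll was at 174.6 CPM in the same library and at 64.76 to 69.54 CPM in the others. Mgll was at 48.09 CPM in midbrain MPTP-SU replicate 1 and at 69.41 to 73.62 CPM in the others.

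The SUEHP difference differed between midbrain and spinal cord by an interaction term for 4 members, at 0.68 for Dagla, 0.90 for Napepld, 0.35 for Gde1 and -0.26 for Abhd12 on the log2 scale. Without midbrain MPTP-Veh replicate 4 these were 0.54, 0.68, 0.32 and -0.13, and Gde1 alone kept an adjusted p below 0.05 in edgeR's test (0.0254).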

How the results depend on the processing

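Of 473 recomputed counts of called members, 435 stayed within 1.5 times the reported count, 25 were lower and 13 higher. The 435 include comparisons with no called member, in which a count of 0 stayed at 0, so they say little about the calls that were made. Direction is not part of these counts, and changes of sign without MPTP-Veh replicate 4 are given above. For midbrain MPTP-SU against MPTP-Veh, the 2 called members became 0 with limma-voom, with library size alone, with no low-count filter and with the 2 groups alone, and 0 to 3 with 1 library left out. The test over all arms called 1 member in midbrain with DESeq2 and with limma-voom, against 0. In spinal cord it called 1 with DESeq2, with limma-voom and with no low-count filter, and 0 to 1 with 1 library left out. For the tissue difference in Con, the adjusted p alone called 5 members against 2, and left-out libraries gave 0 to 3. For the mean of 5 arms it called 9 against 0, and left-out libraries gave 0 to 1. The interaction for MPTP called 1 member with limma-voom, and that for SUEHP called 0 without midbrain MPTP-Veh replicate 4, against 2. The cause was not tested for any of these.

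Whether replicate numbers pair the libraries is not known, and weak correlations between same-numbered libraries cannot settle it. Deviations of same-numbered libraries correlated at -0.17 to 0.38 over 40 pairs in midbrain, -0.17 to 0.23 in spinal cord and -0.19 to 0.34 over 20 pairs between the tissues. With a replicate block, midbrain MPTP-SU against MPTP-Veh called 0 members against 2, with Dagla at 0.60 (adjusted p = 0.0531) and Napepld at 0.80 (0.0534), and the block changed no other count beyond 1.5 times. The lowest count of a member in any library was 75.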
